A study of Caenorhabditis elegans with 3 samples.

Results

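Autosomal intron peaks of EGL-27 are the binding regions that lie inside genes but away from annotated gene starts. They were the peaks of the authors' IDR set that were not on the X chromosome and whose summit lay within a protein-coding gene, outside every protein-coding exon, and outside the promoter window of any protein-coding gene, which reaches 1000 bp upstream and 200 bp downstream from its 5′ end. The IDR set is the authors' list of regions that passed a threshold on the irreproducible discovery rate, which scores how consistently regions rank between replicates. Of its 1997 peaks, 350 (17.5%) met these conditions. Not every region of the set recurs in every replicate, and only 1200 of the 1997 overlapped any region in the list of replicate 1. Peaks were placed on the ce11 genome build with Ensembl gene records. Signal values were not used to choose them.

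The study used ChIP-seq, the sequencing of DNA that is crosslinked to a protein and precipitated with it, to map EGL-27 in whole L2 larvae of Caenorhabditis elegans of mixed sex, in 3 biological replicates. All came from the strain OP177, genotype unc-119(ed3) III; wgIs177, which carries a transgene for EGL-27 with a GFP-FLAG tag at its C terminus; chromatin was sonicated, and the libraries of the control experiment were not analysed here. There was 1 group and no treated or mutant counterpart, so the design allows comparisons between kinds of peak within the same replicates. No source used here gives the copy number or the extent of the transgene, and whole larvae mix all cell types.

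EGL-27 is a worm counterpart of the vertebrate MTA proteins, subunits of the NuRD complex, which joins nucleosome remodelling with histone deacetylation. It is known for its part in embryonic patterning and in cell fate and stress responses in C. elegans. Most introns of this species are short. Enhancers, start sites of shorter transcript isoforms and small noncoding RNA genes can all lie within introns.

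The strongest of these peaks show short sequences that recur in many peaks of the set, though not in all. The 201 bp centred on the summit are given for the 5 strongest. They are read from the RefSeq sequence of the same assembly (WBcel235, which is ce11) on the plus strand, and the host gene is named first. Capitals mark copies, on either strand, of the 5 hexamers CGTCTC, then AGACGC, then AGAGAC, then ACGCAG and lastly CGAGCG, those most frequent at the summits relative to other intron sequence.
Y111B2A.12, chrIII:12612568-12612768: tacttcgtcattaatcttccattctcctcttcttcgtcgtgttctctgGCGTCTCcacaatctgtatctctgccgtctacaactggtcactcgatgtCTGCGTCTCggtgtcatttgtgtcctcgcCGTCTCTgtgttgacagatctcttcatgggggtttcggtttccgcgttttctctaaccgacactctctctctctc
pqn-41, chrIII:1925240-1925440: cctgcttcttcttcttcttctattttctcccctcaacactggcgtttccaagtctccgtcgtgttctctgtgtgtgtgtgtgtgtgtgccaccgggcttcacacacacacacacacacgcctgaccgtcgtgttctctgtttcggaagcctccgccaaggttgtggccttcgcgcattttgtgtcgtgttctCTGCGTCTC
pqn-41, chrIII:1921392-1921592: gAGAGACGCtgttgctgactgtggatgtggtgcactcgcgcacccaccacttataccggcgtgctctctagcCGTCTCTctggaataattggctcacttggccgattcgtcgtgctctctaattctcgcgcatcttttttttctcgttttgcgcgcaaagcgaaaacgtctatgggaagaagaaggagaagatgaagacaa
pqn-41, chrIII:1926516-1926716: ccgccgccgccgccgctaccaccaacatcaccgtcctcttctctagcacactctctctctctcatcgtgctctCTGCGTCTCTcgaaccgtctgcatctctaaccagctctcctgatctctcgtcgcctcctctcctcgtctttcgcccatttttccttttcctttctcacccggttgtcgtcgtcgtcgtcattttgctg
egl-27, chrII:6842755-6842955: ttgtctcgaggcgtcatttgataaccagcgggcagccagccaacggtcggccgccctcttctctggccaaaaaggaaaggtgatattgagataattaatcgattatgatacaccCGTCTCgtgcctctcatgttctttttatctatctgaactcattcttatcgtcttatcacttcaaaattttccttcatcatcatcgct

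All 5 windows held at least 1 of the hexamers, and 23 bases of the Y111B2A.12 window and 6 bases of the egl-27 window lay in them. The windows of Y111B2A.12 and pqn-41 were also richer in G and C than the median intron window. Their G+C content was 49.8% at Y111B2A.12 and 54.2%, 50.7% and 56.7% at the pqn-41 summits, in the order printed. The window in egl-27 had 43.8%, against 32.3% for the median of 98467 windows of the same length laid end to end over all autosomal intron sequence that meets the conditions.

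The strongest EGL-27 peak of the whole IDR set was an intron peak. It lay in intron 4 of Y111B2A.12, a gene on chromosome III with no further description in the files, 3379 bp from the gene's 5′ end and 1923 bp from the nearest exon. The authors' signal, a value per region with no scale named in the files, was 378 in the IDR set, and 36.7, 169 and 175 in the lists of replicates 1, 2 and 3. It ranked 3 in replicate 1 and 1 in both others, so no replicate placed it low.

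Intron 14 of pqn-41, which encodes a glutamine-rich, prion-like protein known in C. elegans for its part in linker cell death, held 4 peaks in 7770 bp of exon-free sequence. They had signals of 308, 299, 220 and 168, and they ranked 2, 3, 16 and 52 among all 1997 peaks. The peak of signal 308 had 38.0, 115 and 163 in replicates 1, 2 and 3 and ranked 1, 7 and 2. The peak of signal 299 had 35.6, 121 and 145 and ranked 4, 3 and 7. All 4 were found among the strongest regions of every replicate, where "found" means that at least 1 bp overlapped one of the 1997 regions of highest signal in that replicate.

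The remaining peaks among the 12 strongest lay in egl-27, zfp-1, Y43F8B.2, tbc-6 and epg-9, and all 12 were found in every replicate. The stronger of those in egl-27, with a signal of 219, had 5.91, 76.4 and 152 in replicates 1, 2 and 3 and ranked 1737, 45 and 4. Peaks of zfp-1, which encodes a chromatin protein related to mammalian AF10, had signals of 201 and 176, and the stronger had 23.8, 80.1 and 110 and ranked 19, 36 and 27. The weaker zfp-1 peak had 5.74, 70.1 and 117 and ranked 1892, 59 and 23. Replicate 1 therefore placed a peak in egl-27 and one in zfp-1 near the bottom of its strongest 1997 regions, whereas replicates 2 and 3 placed both within their first 59.

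**Figure D1:**
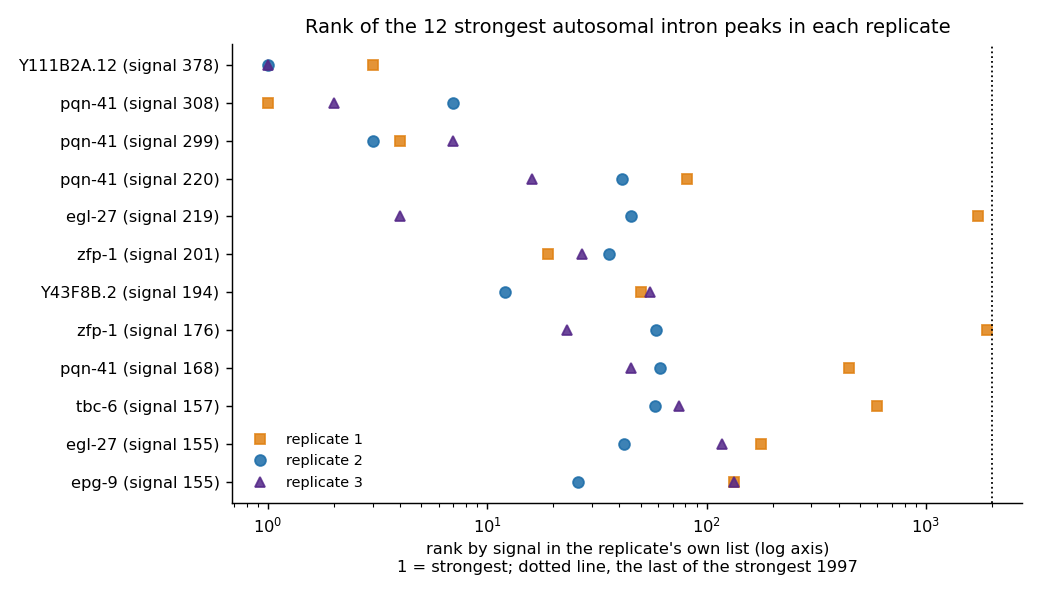
The 12 strongest autosomal intron peaks are listed by host gene with their signal in the IDR set, and the points give their rank by signal in each replicate's own list (logarithmic axis, rank 1 is the strongest). Ranks of the 3 replicates lie close for Y111B2A.12 and for the pqn-41 peaks of signal 308 and 299, while the egl-27 peak of signal 219 and the zfp-1 peak of signal 176 rank 1737 and 1892 in replicate 1.

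The peak of Y43F8B.2 had a signal of 194, and 18.8, 98.9 and 82.0 in replicates 1, 2 and 3. The peak of tbc-6, a gene for a Rab GTPase-activating protein of the TBC family next to egl-27, had 157, and 8.31, 70.2 and 73.8. The peak of epg-9, an autophagy gene, had 155, and 13.9, 83.3 and 61.6. Each of these ranked in the first 58 of replicate 2 and in the first 134 of replicate 3. In replicate 1 the peaks of Y43F8B.2, tbc-6 and epg-9 ranked 50, 599 and 134.

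The 3 replicates were unequal in ways that touch every value here. The list of replicate 1 held 13245 regions and those of replicates 2 and 3 held 30000 each. Intron regions among the strongest 1997 of each list had a median signal of 6.87, 21.5 and 26.7 in replicates 1, 2 and 3. They numbered 416, 360 and 347, which is 20.8%, 18.0% and 17.4% of those regions (mean 18.7 ± 1.84%, SD, n = 3). Of them, 119, 276 and 273 overlapped a member of the IDR intron set. The files hold no read counts, so the depth behind each list is unknown.

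Signals of intron peaks covered nearly the whole range of the IDR set, with a median a little below that of promoter peaks. They had a lowest value of 34.8, a median of 49.1 and a highest value of 378. Over the 100 found in every replicate the median was 76.8, and over those found in both replicates 1 and 3 it was 73.8. The median was 52.2 for the 754 autosomal promoter peaks, 49.0 for the 407 autosomal peaks outside protein-coding genes and promoter windows (distal intergenic), and 50.8 for all IDR peaks. Among the 100 strongest peaks of the set, 17 were autosomal intron peaks, 37 were autosomal promoter peaks and 16 were distal intergenic peaks. These classes made up 17.5%, 37.8% and 20.4% of the whole set, so the intron count is close to its share. In 283 of the 350 (80.9%) the width was the default of 350 bp, so width is not read as a measurement.

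Of the 350 intron peaks, 126 (36%), 275 (78.6%) and 274 (78.3%) were found in replicates 1, 2 and 3. Over all IDR peaks these shares were 32, 77.7 and 79.2%. In every replicate, 100 intron peaks (28.6%) were found, against 25% of all IDR peaks, and 12 intron peaks, with signals of 34.9 to 39.0, were found in none. Replicate 1 held the fewest peaks of each class, so the count in every replicate cannot exceed its 126.

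The shares of intron and promoter peaks that a replicate found differed by less than the spread of that difference between replicates. The mean share was 64.3 ± 24.5% for intron peaks and 63.2 ± 27.5% for promoter peaks (SD, n = 3). The difference was 4.44, −2.46 and 1.36 percentage points in replicates 1, 2 and 3, a mean of 1.11 ± 3.46 (SD, n = 3; exact sign-flip permutation test over replicates, two-sided, p = 0.75, adjusted p = 0.75 over 2 comparisons). Against distal intergenic peaks, with 60.6 ± 30.1%, it was 9.71, 5.35 and −4.02, a mean of 3.68 ± 7.02 (SD, n = 3; same exact test, p = 0.5, adjusted p = 0.75). With 3 replicates this test cannot give a p below 0.25, so it cannot show that the classes are alike or that they differ. The sign of the difference from promoter peaks turned with the overlap required and without replicate 1.

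**Figure D2:**
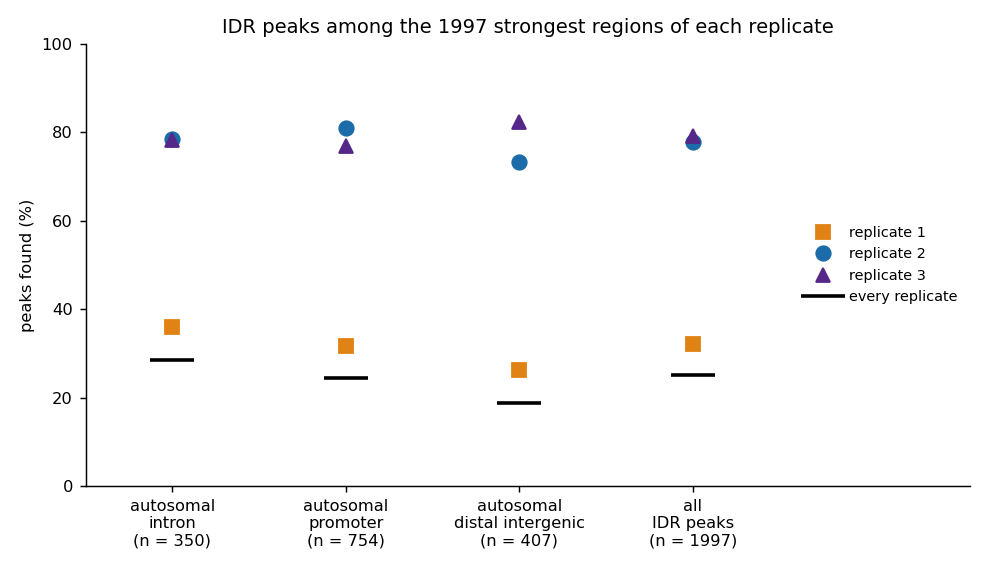
Points give the share of each class of IDR peak that overlaps the 1997 strongest regions of replicates 1, 2 and 3, and bars give the share found in every replicate. Replicate 1 is low for every class. It holds 36% of intron, 31.6% of promoter and 26.3% of distal intergenic peaks, and 32% of all IDR peaks.

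Replicates also ranked the intron peaks with some likeness. Spearman's rho of the signals was 0.51 between replicates 2 and 3 over 347 peaks, 0.36 between replicates 1 and 2 over 212, and 0.32 between replicates 1 and 3 over 213. These are correlations across peaks of the same libraries, given as a description. For promoter peaks they were 0.54, 0.37 and 0.38 in the same order, and for distal intergenic peaks 0.42, 0.41 and 0.28.

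Most host genes held a single intron peak, and a few held many. The 350 peaks lay in 258 host genes, which is 1.71% of the 15059 autosomal protein-coding genes with intron sequence that meets the conditions; 205 hosts held 1 peak, 36 held 2, and 17 held 3 or more. The hosts with the most were egl-27 with 12, T28B11.1 with 7, and zfp-1 and fkh-7 with 5 each. Of the intron peaks, 186 (53.1%) had another IDR summit within 5 kb, against 24.8% of promoter peaks and 40.0% of distal intergenic peaks, and the median distance to the nearest other summit was 4156 bp, against 15294 and 7948 bp.

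Long genes supplied most of these hosts. The median length of intron sequence that meets the conditions was 5204 bp in hosts and 679 bp in other genes. The share of genes that were hosts was 15.8% among genes with 10 kb or more of such sequence, and 0.230% among those with less than 1 kb. Per Mb of such sequence, the same groups held 17.6 and 5.93 peaks, so the density differed less than the share of genes. A promoter peak of their own was present in 39 hosts (15.1%), against 5.41% of other genes.

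The egl-27 gene itself, at chrII:6835008-6847908 on the plus strand, held 12 intron peaks along 8779 bp of such sequence. Their signals were 36.5 at the lowest, 72.8 at the median and 219 at the highest, and 4 of the 12 were found in every replicate. They lay in introns 2, 3, 5, 8, 10 and 11, and no IDR peak fell in the promoter window of the gene. The difference in G+C content between summit and flanks was 0.995 percentage points at the median of these 12, against 8.71 for all 350. The strain carries an EGL-27 transgene of unknown extent. Its part in the signal over this gene, and at tbc-6 beside it, was not tested. Without the peaks in egl-27 or within 20 kb of it, 336 intron peaks in 255 hosts remained, with a median signal of 48.7.

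T28B11.1, on the minus strand of chromosome V, held 7 peaks in intron 1, an exon-free stretch of 17091 bp, with signals from 36.1 to 97.0. The peak of signal 97.0 had 12.4, 22.8 and 67.2 in replicates 1, 2 and 3. Of the 7, 3 were found in every replicate, and the other 4 did not overlap the strongest regions of replicate 1. The introns of zfp-1 held 5 peaks, with signals of 70.9 to 201, of which 4 were found in every replicate. The 4 zfp-1 peaks below the strongest had signals of 176, 141, 120 and 70.9, so all 5 ranked within the first 523 of the IDR set.

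The forkhead factor gene fkh-7 held 5 peaks of 37.8 to 99.0, 4 of them in an exon-free stretch of 16465 bp in intron 1. In pkg-2, a gene for a cGMP-dependent protein kinase, 4 peaks of 59.2 to 138 lay in intron 4. In daf-5, which encodes the SKI/SNO homologue of the TGF-β pathway, 4 peaks of 37.8 to 104 lay in intron 1, and the strongest had 13.6, 45.8 and 41.4 in replicates 1, 2 and 3. In each of these 3 hosts 1 peak was found in every replicate.

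Hosts with 4 peaks also included akap-1, which encodes an A-kinase anchoring protein, with a highest signal of 91.1. The others were ifbp-1 with 80.0, the CCCH zinc finger gene ccch-1 with 75.8, and aakg-1, which encodes a γ subunit of AMP-activated kinase, with 66.0. Those with 3 peaks were Y43F8B.2, the MAP kinase phosphatase gene vhp-1, the protein phosphatase 4 regulatory gene ppfr-1, the TFEB homologue gene hlh-30, the protein kinase A catalytic subunit gene kin-1, and lsy-22. All 3 peaks of vhp-1 were found in every replicate, with signals of 55.1 to 103, whereas none of the 3 peaks of lsy-22 was.

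**Figure D3:**
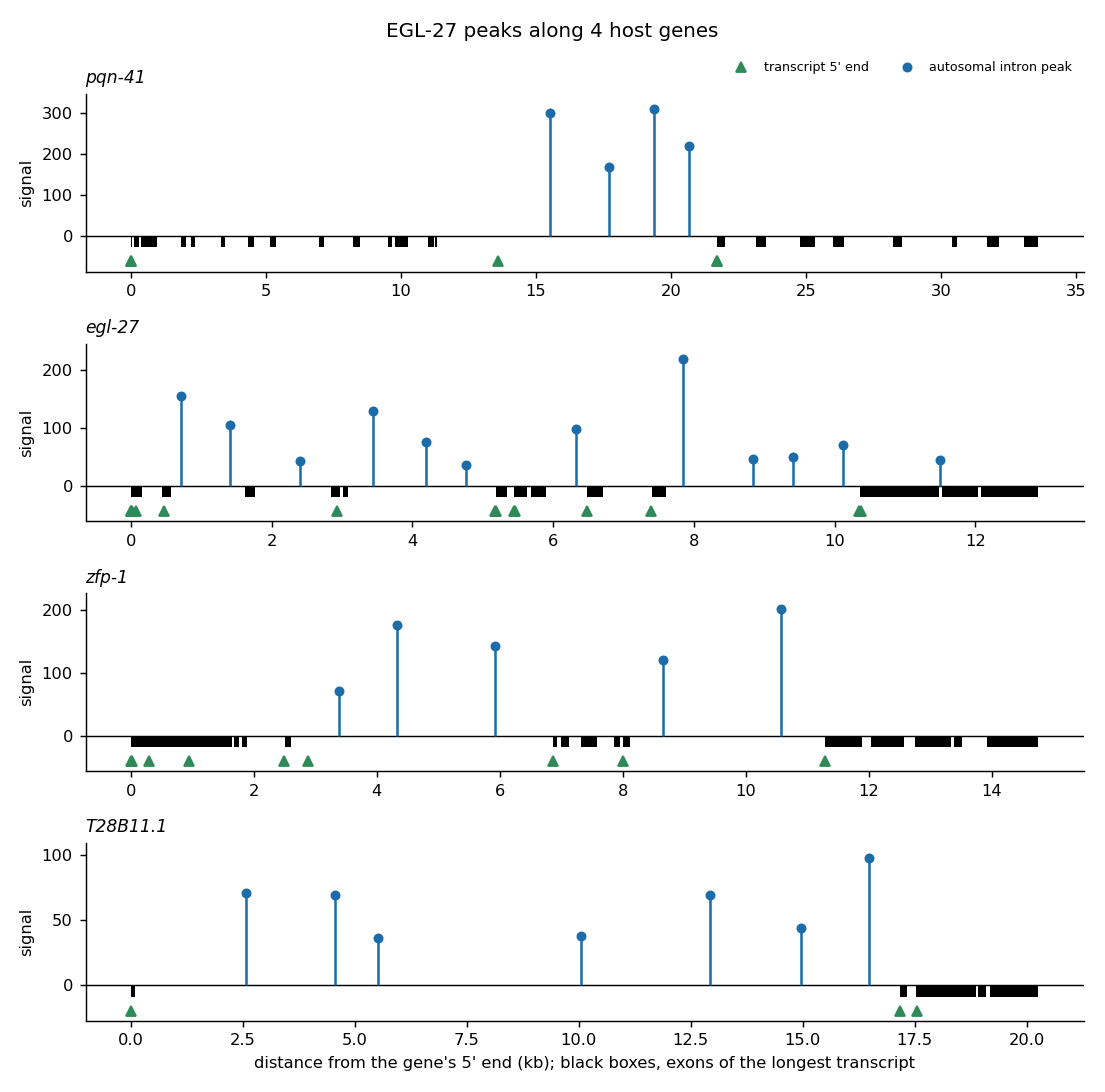
Each panel runs along 1 host gene from its 5′ end (kb), with black boxes for the exons of its longest transcript, triangles for the 5′ ends of its transcripts, and blue stems for the signal of its autosomal intron peaks. The 4 peaks of pqn-41 share an exon-free stretch with signals of 168 to 308, the 12 peaks of egl-27 are spread over 6 introns, and the 7 peaks of T28B11.1 all lie in its long intron 1.

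Within genes, the peaks lay in longer introns and farther from exons, at the median, than the bases that meet the conditions. The exon-free stretch that held a summit had a median length of 2366.5 bp, against 956 bp over all bases that meet the conditions. Stretches of 5 kb or more held 99 peaks (28.3%) in 9.82% of those bases, a density of 39.7 peaks per Mb, and stretches under 200 bp held 5 peaks (1.43%) in 11.4% of them. The distance from the summit to the nearest exon had a median of 488.5 bp, against 205 bp for all such bases, and 31 peaks (8.86%) were within 100 bp of an exon, against 32.0% of the bases. There were 286 stretches with a peak, and 41 of them held more than 1 peak, 105 peaks in all. Stretches under 1 kb still held 100 peaks (28.6%). Density was 11.8 peaks per Mb in stretches of 200 to 500 bp and 7.57 in those of 500 to 1000 bp. It was 10.3 from 1 to 2 kb and 21.9 from 2 to 5 kb, so it did not rise steadily with length.

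Distance from the gene's start told less. The summit was a median of 3760.5 bp from the 5′ end of its host, against 2748 bp for all bases that meet the conditions. The density was 9.82 peaks per Mb below 1 kb, 11.7 from 1 to 2 kb, 14.4 from 2 to 5 kb, 19.2 from 5 to 10 kb and 14.6 beyond. Median signals of these groups lay between 47.1 and 53.5, so peaks far from a start were not weaker at the median.

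**Figure D4:**
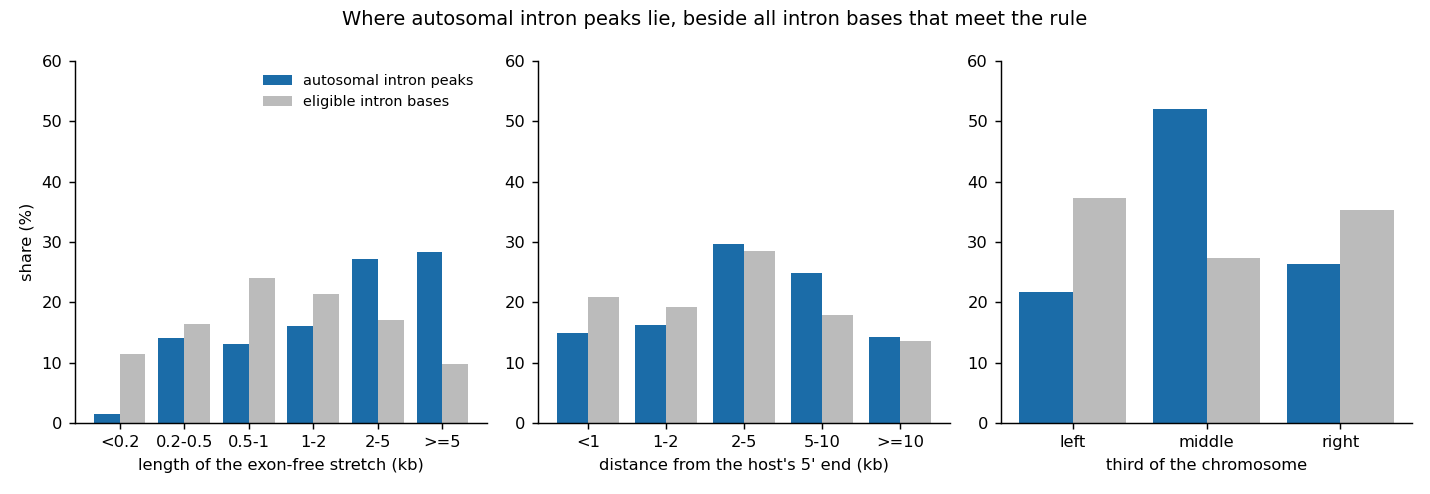
Blue bars give the share of the 350 autosomal intron peaks and grey bars the share of all autosomal intron bases that meet the conditions, by length of the exon-free stretch (kb), distance from the host's 5′ end (kb) and position along the chromosome. Stretches of 5 kb or more hold 28.3% of the peaks and 9.82% of the bases, and the middle of the chromosomes holds 52% of the peaks and 27.4% of the bases.

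The same features in each replicate's own intron regions showed the gap between replicate 1 and the others. Stretches of 5 kb or more held 21.9%, 27.8% and 28.2% of them in replicates 1, 2 and 3. The share within 100 bp of an exon was 24.8%, 10.8% and 9.80%. Replicate 1 was thus closer than the others to the 32.0% that all such bases give.

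Many of the peaks lay near the start of a shorter transcript of the same gene, since the gene record gives only the outermost 5′ end. Of the 350, 97 (27.7%) fell in a promoter window of the same size drawn for a transcript of their host, against 10.9% of the bases that meet the conditions. Their median signal was 50.2, and 28.9% of them were found in every replicate, against 48.8 and 28.5% for the 253 outside all such windows. The zfp-1 peak of signal 201, which lies 721 bp upstream of a transcript start, is one of them. In the longest transcript, 128 peaks (36.6%) lay in the first intron, against 22.0% of the bases, and 187 (53.4%) lay in the first intron of at least 1 transcript, against 30.9%.

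In the replicates' own intron regions, those near a transcript start were 17.3%, 26.1% and 27.7% of the total in replicates 1, 2 and 3 (mean 23.7 ± 5.59%, SD, n = 3). The first intron of the longest transcript held 26.7%, 36.9% and 36.0% (mean 33.2 ± 5.68%, SD, n = 3). All 6 values were above the shares of the bases. Just outside the gene windows of the rule, 20 intron peaks lay at most 200 bp from such a window, with a median signal of 46.9, and 13 summits in intron sequence lay inside a window at most 200 bp from its edge, with a median of 58.3.

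Many intron peaks lay beside noncoding RNA genes. Within 100 bp of such a gene, pseudogenes and piRNA genes left out, lay 98 peaks (28%), against 2.57% of the bases that meet the conditions and 21.7% of all IDR peaks. Of the 350, 68 (19.4%) were near a gene annotated only as ncRNA, 26 (7.43%) near a snoRNA gene, 18 (5.14%) near a tRNA gene and 7 (2%) near a snRNA gene, and a peak may be near several. The bases near these 4 types were 2.11%, 0.152%, 0.151% and 0.0616% of the total, and no peak was near a miRNA gene, in 0.0641% of the bases.

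The snoRNAs guide chemical changes of ribosomal and other RNAs, and in C. elegans many of their genes lie within introns. The strongest peak near one, chosen after its values were seen, lay in the peroxidasin gene pxn-1 beside ZK994.7, with a signal of 106 and 9.59, 40.5 and 55.1 in replicates 1, 2 and 3. The 26 peaks near snoRNA genes had a median signal of 53.4 and 10 (38.5%) were found in every replicate, against 28.6% of all intron peaks. They include 2 overlapping regions in C08D8.1, with signals of 72.4 and 44.9, that take the same values in each replicate. The 18 near tRNA genes, which RNA polymerase III transcribes, had a median of 49.0 and 4 (22.2%) were found in every replicate. In the replicates' own intron regions 11.1%, 27.8% and 25.1% lay near a noncoding RNA gene (mean 21.3 ± 8.97%, SD, n = 3), so replicate 1 was low here too.

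Of the 98 peaks near noncoding RNA genes 32 were found in every replicate, against 68 of the 252 farther away, with median signals of 50.5 and 48.5. Their windows were richer in G and C, with a median of 48.5% against 43.8%. They held the GAGAGA sequence less often, in 44.9% against 60.7%, a difference given without a test.

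Peaks were denser towards the middle of the chromosomes. Dividing each autosome in 3 equal lengths, the middle one held 182 intron peaks (52%) in 27.4% of the bases that meet the conditions. It held 45.9% of promoter peaks and 45.9% of distal intergenic peaks, whose own share of available sequence there was not measured. By chromosome, its share of intron peaks was 57.8, 51.2, 45.6, 41.4 and 68.4% on I, II, III, IV and V, and its share of the bases lay between 24.3 and 28.8%. In replicates 1, 2 and 3 it held 40.9%, 50.6% and 53.3% of the intron regions (mean 48.2 ± 6.54%, SD, n = 3).

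The density over the bases that meet the conditions, which are 30.74% of the autosomes, was 13.8 peaks per Mb. It was 18.7 per Mb on chromosome II (15.4 without the block around egl-27), 16.2 on III, 13.2 on IV, 11.6 on I and 10.5 on V. The X chromosome had 103 peaks of the same kind, 20.1 per Mb of such bases. Median signal was highest on V, at 60.5, and between 44.6 and 50.1 on the other autosomes.

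The host genes were set against lists of genes by function, and each count is to be read beside the 1.71% of all genes that were hosts and the 13.6 peaks per Mb over all genes. Transcription factors of development other than homeobox factors and nuclear hormone receptors included 11 hosts among 83 genes (13.3%), with 58.6 peaks per Mb. The strongest was daf-16, the FOXO factor of insulin signalling, whose stronger peak had a signal of 121 and 18.7, 42.5 and 58.1 in replicates 1, 2 and 3. Its weaker peak had 35.9, and 7.30, 9.18 and 21.2, and was not among the strongest 1997 regions of replicate 2. The others were zip-2, fkh-7, elt-1, skn-1, jun-1, hlh-30, crh-1, hlh-11, hif-1 and ast-1.

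Nuclear hormone receptor genes, of which C. elegans has an expanded family, included 10 hosts among 243 (4.12%), and the strongest was nhr-19 with a signal of 146 and 12.6, 68.0 and 64.3 in replicates 1, 2 and 3. Homeobox genes included 0 hosts among 68, in 168419 bp of intron sequence that meets the conditions, beside 1.71% of all genes and 13.6 peaks per Mb. Genes of axon guidance and cell adhesion likewise included 0 hosts among 53, in 482014 bp. Both are counts, given with no test.

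Chromatin regulators included 5 hosts among 53 (9.43%), with 65.6 peaks per Mb when egl-27 is left out and 136 with it. Beside egl-27 and zfp-1 these were let-526, an ARID subunit of the SWI/SNF complex with a highest signal of 140, pbrm-1 of the same complex family with 125, and nurf-1 of the NURF complex with 43.2. The stronger peak of let-526 had 14.1, 48.7 and 79.2 in replicates 1, 2 and 3 and was found in all of them. Genes of signalling pathways included 7 hosts among 80 (8.75%), led by the SMAD gene daf-14 and by daf-5, both at 104, with the ERK gene mpk-1 at 84.8 and the Notch effector gene lag-1 at 73.2. The daf-14 peak was absent from the list of replicate 1 and had 50.4 and 55.8 in replicates 2 and 3.

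Genes of the synaptic vesicle cycle included 5 hosts among 50 (10%), with 26.3 peaks per Mb, and the strongest was gsa-1, a Gα subunit gene, at 62.7. Ion channel and receptor genes included 6 among 198 (3.03%) with 9.01 peaks per Mb, below the density of all genes, led by the glutamate receptor gene glr-2 at 66.8. The cytoskeleton list had 3 hosts among 69 (4.35%), led by frm-7 at 69.5, with 10.8 peaks per Mb. The RNA-binding list had 2 among 66 (3.03%), led by larp-1 at 56.4, with 15.1 peaks per Mb. Of 46 genes of muscle, the dystrophin gene dys-1 was the 1 host (2.17%), at 38.6, with 3.55 peaks per Mb. Over all genes the density was 13.6 peaks per Mb. Genes in these lists differ in intron length, so the share of hosts and the density per Mb can rank them differently.

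Sequence at the summits set the intron peaks apart from other intron sequence. The median G+C content of the 201 bp around the summit was 45.3%, against 36.4% in windows 500 bp to each side, and it was higher at the summit in 299 of 350 peaks (85.4%), with a median difference of 8.71 percentage points. That difference was 5.97 for promoter peaks and 11.4 for distal intergenic peaks. In the replicates' own intron regions it was 1.99, 9.45 and 8.71 in replicates 1, 2 and 3 (mean 6.72 ± 4.11, SD, n = 3). Replicate 1 thus had the smallest rise at the summit.

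The GA-repeat sequence GAGAGA was the most frequent of 15 short sites searched on both strands. It was present in 197 of the 350 summit windows (56.3%), against 12% of flank windows, 8.35% of all intron windows and 49.3% of all IDR peaks. In the replicates' own intron regions the share was 26.9%, 54.7% and 56.2% in replicates 1, 2 and 3 (mean 45.9 ± 16.5%, SD, n = 3). All 3 values were above that of the intron windows, and replicate 1 was again the lowest.

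Other sites above all intron windows were in fewer summits. The E-box CACGTG, bound by bHLH factors, was in 12.6% of summits against 2.76% of intron windows, and the CA repeat CACACACA in 10.9% against 1.39%. The second E-box CAGCTG was in 7.71% against 2.38%, and the GC box GGGCGG in 9.71% against 3.65%. In flanks, CACGTG was in 3.57%, CACACACA in 3.71%, CAGCTG in 5% and GGGCGG in 4.43%. Over all IDR peaks the shares were 9.11%, 8.36%, 7.06% and 8.96% in the same order, so these sites were not particular to intron peaks. The nuclear receptor element AGGTCA was in 8.29% of summits, 5.43% of flanks and 4.43% of intron windows. The GATA site TGATAA was in 16.9% of summits, 16.1% of flanks and 15.8% of intron windows, close to the same share in all 3.

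The run of T, the heat shock element and the homeodomain core were rarer at summits. TTTTTTTT was in 10% of summits against 34.8% of intron windows, GAANNTTC, the paired element of heat shock factor, in 3.71% against 18.1%, and the homeodomain core TAATTA in 4.57% against 10.1%. In flanks they were in 19.6%, 11.4% and 8.29%, and over all IDR peaks in 9.61%, 6.71% and 4.71%, in the same order. The forkhead site GTAAACA was in 2.29% against 1.93%. The CRE site TGACGTCA was in 2.29% against 1.46%, the AP-1 site TGACTCA in 2.29% against 1.46%, the E2F site GCGCGAAA in 1.71% against 1.16%, and the POU octamer ATTTGCAT in 0.857% against 1.55%. These were 8 summits or fewer for each site. In flanks the forkhead, CRE, AP-1, E2F and POU sites were in 2.43%, 1.29%, 2.43%, 1.43% and 1.57%. Summits had a median G+C content of 45.3%, against 32.3% for all intron windows. The part of this in the shares of any site was not tested. A match is a stretch of letters and not a shown binding site.

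**Figure D5:**
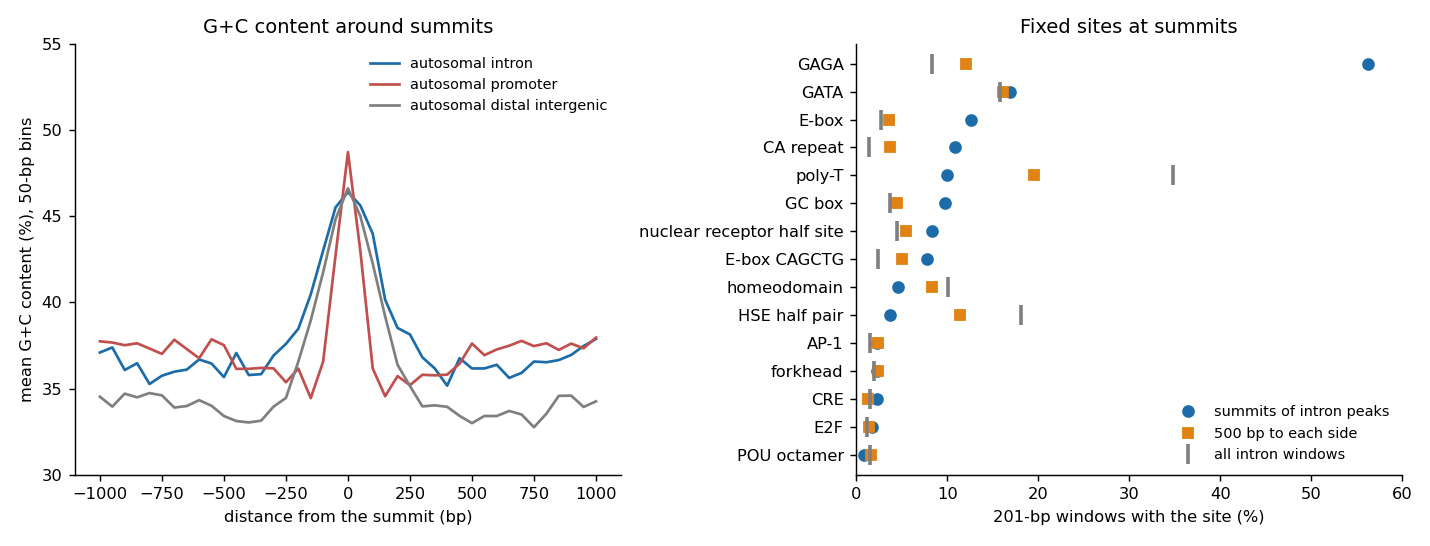
The left panel gives the mean G+C content (%) in 50-bp bins by distance from the summit (bp) for autosomal intron, promoter and distal intergenic peaks, and the right panel the share of 201-bp windows with each of 15 sites (%) for summits of intron peaks, windows 500 bp to each side, and all intron windows. G+C content peaks at the summit in all 3 classes, and GAGAGA is in 56.3% of summits and 8.35% of all intron windows.

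Among all hexamers in at least 10% of the summit windows, the 5 of the largest ratio to all intron windows were those in capitals above. CGTCTC was in 36% of summits against 4.22%, AGACGC in 28% against 3.60%, AGAGAC in 42.6% against 5.59%, ACGCAG in 27.7% against 3.72%, and CGAGCG in 10% against 1.37%. The first 4 overlap one another as parts of longer runs. GAGACGCAGA, which contains several of them, was in 53 summits (15.1%) against 0.985% of intron windows, and in 12.2% of promoter and 17.4% of distal intergenic peaks. The hexamers were ranked on these same windows, so the shares describe them and test nothing.

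At least 1 of GAGAGA and the 5 hexamers was in 74.6% of intron summits, against 22.9% of flanks and 18.1% of all intron windows. The share was 63.4% for promoter peaks, 78.4% for distal intergenic peaks and 69.7% for all IDR peaks. CGTCTC was in 15.6%, 35.3% and 33.1% of the intron regions of replicates 1, 2 and 3. The sequences are thus shared with the other classes of peak, though not in equal shares. GAGAGA was in 39.8% of promoter and 61.7% of distal intergenic peaks. CGAGCG was in 5.97% and 3.93% of them, below the 10% of intron summits.

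Peaks with these sequences had higher signals at the median and were found more often. The 126 intron peaks with CGTCTC had a median signal of 55.1 and 42.1% were found in every replicate, against 47.2 and 21.0% for the 224 without it. The 197 with GAGAGA had a median of 53.6 and 34.0% found in every replicate, against 47.0 and 21.6%. For the 89 peaks with none of the 6 sequences the median was 44.2 and 12.4% were found in every replicate. In replicates 1, 2 and 3 alone, 19.1%, 73.0% and 70.8% of these 89 were found. The shares were 41.8%, 80.5% and 80.8% for the 261 with at least 1, the same direction in 3 of 3 replicates. The hexamers were ranked on these same summits, and the replicates also went into the IDR set. These differences are therefore a description and not a test.

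Length of the exon-free stretch moved with the same sequences. GAGAGA was in 71.7% of the 99 summits in stretches of 5 kb or more, and 33.3% of those peaks were found in every replicate, with a median signal of 53.8. In stretches under 1 kb it was in 38% of 100 summits, 22% of which were found in every replicate, with a median signal of 48.5. The part of G+C content and of the replicates' depth in these differences was not tested.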

How the data were processed

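ChIP-seq of tagged EGL-27 in L2 larvae gave peak lists for 3 biological replicates, a pooled list and an IDR set. Per the labels, the authors made each list from alignments with a control; no source used here names the aligner, the peak caller or the IDR threshold. The authors deposited a signal value, a −log10 q-value and a summit offset for each region; all 1997 IDR regions share the highest q-value, so it was not used to rank them. Read counts were not analysed here, and depth is unknown.

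Summits were placed on ce11 with Ensembl release 115 records of 19973 protein-coding genes, and sequence came from the RefSeq copy of the same assembly. Lists on ce10 were not used. Each summit was put in a promoter window, an exon, an intron or none of these, in that order. "Found" means an overlap of 1 bp or more with the 1997 strongest regions of a replicate. Background for position and sequence was every autosomal base that meets the conditions, and 98467 windows of 201 bp laid over them. Only the share found per replicate was tested, by an exact sign-flip test over 3 replicates with Benjamini-Hochberg adjustment over 2 comparisons; counts over peaks, genes and windows are descriptions. Members, gene lists and sites were chosen with earlier results of these data known. Named were the 12 strongest peaks, hosts with 3 or more, the strongest host of each list, egl-27, daf-16, pqn-41 and Y111B2A.12; hosts beyond these are named from the same lists. Alternatives changed the windows, the overlap, the peaks kept and the replicates. The placement and counting steps were tested on simulated data. Python 3.11.15, numpy 2.4.6, pandas 2.3.3, scipy 1.17.1 and matplotlib 3.10.9 were used.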

Additional observations from a re-analysis of the deposited data

How the results depend on the processing

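The number of intron peaks was 165 in the stronger part of the IDR set (998 peaks), 100 when found in every replicate, and 108 to 220 when only peaks found in both other replicates were kept, leaving out each replicate in turn. Host genes then numbered 123, 78 and 82 to 163. Their median signal was 76.8 when found in every replicate and 60.9 to 73.8 leaving out each replicate in turn. The share of intron peaks found in every replicate was 22.3% when 50% of the peak had to be covered, 20.6% when summits had to lie within 100 bp, 60.6% with the whole lists, 50.9% in the stronger part of the set, and 30.9 to 62.9% leaving out each replicate in turn, the highest being without replicate 1. The difference from promoter peaks in the share found turned to −0.351 percentage points with 50% covered and −0.301 with summits within 100 bp, and ran from −0.550 without replicate 1 to 2.90 without replicate 2; the cause was not tested. The difference from distal intergenic peaks stayed positive under each alternative, at 0.664 without replicate 1 and 7.53 without replicate 3. Promoter windows of 500 or 2000 bp and the 5′ ends of all transcripts gave 365, 320 and 253 peaks. The first-intron share was 53.4% over any transcript. With windows of 50 bp on each side GAGAGA was in 39.1% of summits. No paired analysis was possible because the samples form 1 group, with no other group to pair them with; the differences between classes of peak are already taken within each replicate. The ce10 alternative was not run, as no gene records of that build were used. Signal carries no scale, depth is unknown, and peaks of 1 strain in whole larvae are described, so neither cell type nor differences in depth between replicates can be resolved.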
